A study of Mus musculus with 2 samples.

Results

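The posterior HoxA genes Hoxa9, Hoxa10, Hoxa11 and Hoxa13, and the antisense-strand RNAs Hoxa11os and Hottip, were chosen by symbol from the GENCODE M21 annotation, and they make up 6 of the 55536 genes in the deposited tables. All 6 were found by symbol and gene identifier. They were measured in whole limb tissue of mouse embryos of strain B6NCrl at embryonic day 12.5, with male and female embryos pooled and no treatment or mutant allele named in the labels. The limbs of 88 embryos were pooled for replicate 1 and those of 68 embryos for replicate 2, the labels name them biological replicates, and no other library was used here. From each pool 10 ng of RNA entered cDNA synthesis primed by oligo-dT, followed by tagmentation. There was 1 group, so levels were compared between genes and between the replicates, and no condition was compared.

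Hox genes encode homeodomain transcription factors that pattern the body axis and the limb, and within a cluster they are activated in the order in which they lie on the chromosome. In the limb the posterior HoxA genes act along the proximal to distal axis. Hoxa9 and Hoxa10 act with their paralogues in the upper limb, Hoxa11 in the forearm and lower leg, and Hoxa13 in the hand and foot plate. Hoxa11os is transcribed from the strand opposite Hoxa11, and its transcription has been linked to the distal limb, where Hoxa11 is low. Hottip is transcribed from the distal end of the cluster, beyond Hoxa13, and has been described as a partner of Wdr5, a subunit of the Mll histone methyltransferase complexes. In a homogenate of whole limbs, fewer cells of a type and less RNA per cell cannot be told apart.

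Hoxa10, which has more than 1 annotated start, and Hoxa11 with its antisense RNA carry the transcript-level results, so their sequences are shown here. The lines below give the splice junctions of 3 Hoxa10 transcripts, from the GENCODE M21 transcripts on GRCm38, written 5′ to 3′ on the gene's own strand. Lower case marks the last bases of each transcript's own first exon and capitals mark the shared second exon, which begins in all 3 at the same base of the minus strand.
Hoxa10-201: ctgaaatgagtcaagGCAGTTCCAAAGGCG
Hoxa10-202: agaaggactccctggGCAGTTCCAAAGGCG
Hoxa10-203: atctaggaggctaggGCAGTTCCAAAGGCG
The introns so removed lie between the exon ends at chr6:52232780-52240278, chr6:52232780-52233959 and chr6:52232780-52233197. The RefSeq promoter table (GRCm38.p6) lists a promoter for the upstream start and for the start of the full coding transcript of Hoxa10. They are printed from 250 bases before to 50 bases after the start, on the minus strand, with the bases of the upstream promoter at chr6:52240805-52241104 and those of the coding transcript's promoter at chr6:52234890-52235189.
Hoxa10 upstream promoter: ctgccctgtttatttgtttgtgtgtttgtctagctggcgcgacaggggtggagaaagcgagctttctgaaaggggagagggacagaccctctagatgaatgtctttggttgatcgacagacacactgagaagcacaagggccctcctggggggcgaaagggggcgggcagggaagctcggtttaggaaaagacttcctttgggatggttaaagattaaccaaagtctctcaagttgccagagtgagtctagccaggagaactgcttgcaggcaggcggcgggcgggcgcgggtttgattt
Hoxa10-202 promoter: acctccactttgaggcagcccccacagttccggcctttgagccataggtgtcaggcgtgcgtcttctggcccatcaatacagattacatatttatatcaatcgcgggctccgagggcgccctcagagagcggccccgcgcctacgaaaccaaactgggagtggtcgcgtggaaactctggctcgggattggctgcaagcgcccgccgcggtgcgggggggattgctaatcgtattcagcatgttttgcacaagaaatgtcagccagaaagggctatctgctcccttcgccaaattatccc
The upstream window was 54.3% G and C and the Hoxa10-202 window 57.3%, beside a median of 52.7% over the 32851 promoters of the table.

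Hoxa11 and Hoxa11os share 800 exonic bases, at chr6:52245011-52245810, and this stretch is the whole of the first exon of Hoxa11. The same 30 positions, chr6:52245690-52245719, are printed below from a transcript of each gene, with the start codon of Hoxa11 and its complement in capitals.
Hoxa11-201: ATGatggattttgatgagcgtggtccctgc
Hoxa11os-201: gcagggaccacgctcatcaaaatccatCAT
The antisense line is the reverse complement of the sense line. No use of strand was given in the sources used here, so reads from the shared bases cannot be told apart between the genes.

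The libraries held 29633457 and 30118921 reads assigned to genes, and 15818 and 15964 genes reached 1 TPM, the deposited unit of level, which is scaled by transcript length and library depth. At these depths a transcript of 2000 nt at 1 TPM had 37.5 and 37.9 reads. ERCC spike-in RNA took 7.34% and 5.13% of the deposited TPM. The tissue label was checked against 7 limb mesenchyme genes, all at 1 TPM in both libraries, from Lmx1b (7.72 and 6.84 TPM) to Msx1 (360.8 and 388.5 TPM), with a summed level of 886 and 938 TPM. Of 6 neural tube genes, 1 reached 1 TPM (Tubb3, 7.13 and 11.5 TPM), the summed level was 7.62 and 11.8 TPM, and Sox1 and Neurog2 had 0 reads. Of 8 genes of trunk organs, 1 reached 1 TPM (Myh6, 2.57 and 1.40 TPM), the summed level was 4.68 and 2.72 TPM, and Nkx2-5 and Cdx2 had 0 reads. Markers of other limb cell types were present. The 4 epithelial genes summed to 270.3 and 250.6 TPM, and the 5 muscle genes to 465 and 448 TPM. Of the muscle genes, 4 reached 1 TPM in both libraries. Actc1 was the highest, at 333 and 319 TPM, and Pax7 the lowest, at 0.35 and 0.32 TPM. Of the 5 blood and endothelial genes, summing to 7162 and 7161 TPM, the embryonic globin Hbb-y made up nearly all, at 7123 and 7126 TPM, and Ptprc was the lowest, at 1.28 and 1 TPM.

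All 6 genes were at 1 TPM or more in both libraries, as were 15181 of the 55536 genes. Their mean levels covered the range from 8.45 TPM for Hottip to 520.3 TPM for Hoxa11os. Hoxa10 ranked the highest of the 39 Hox genes, Hoxa11 the third, Hoxa9 the fifth and Hoxa13 the eighth. The map of the HoxA interval sets each gene's level against its place in the cluster.

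**Figure D1:**
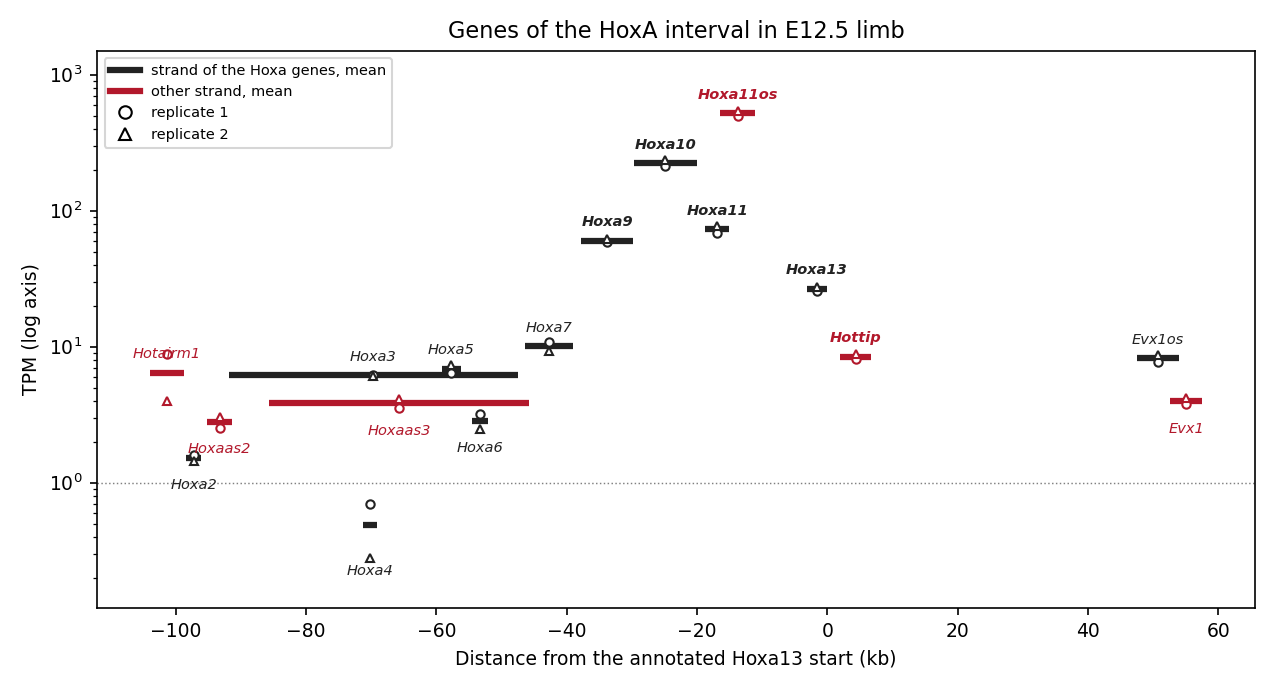
Level in TPM (log axis) of the HoxA genes reported here, HoxA noncoding RNAs and the neighbouring Evx1 genes against distance in kb from the annotated start of Hoxa13; bars span each gene body at its mean, and circles and triangles are replicates 1 and 2. The 6 genes described here, in bold, lie at 8.08 TPM or above, and Hoxa11os at 498.8 and 541.8 TPM is the highest.

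Hoxa9 (ENSMUSG00000038227.15, chr6:52223100-52231089, minus strand) was at 58.4 TPM in replicate 1 and 61.8 TPM in replicate 2, from 2491 and 2512 reads. Its mean was 60.1 ± 2.39 TPM (SD, n = 2), and the libraries differed by 0.08 on the log2(TPM + 1) scale. The difference did not pass the exact binomial test on reads (adjusted p = 0.934). By scaled reads the ratio of replicate 2 to replicate 1 was 0.994 with TMM library sizes and on the other side of 1 with DESeq2 size factors, so the direction seen in TPM was not seen in reads under TMM. The deposited mean length of Hoxa9, which divides its reads, was 2260 nt in replicate 1 and 2139 nt in replicate 2.

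Hoxa10 (ENSMUSG00000000938.11, chr6:52231197-52240854, minus strand) was at 212 TPM in replicate 1 and 234 TPM in replicate 2, from 7365 and 8114 reads. Its mean was 223 ± 15.4 TPM (SD, n = 2), the 709th highest of all genes. Replicate 2 was higher by 0.14 on the log2 scale (exact binomial test, adjusted p = 8.5e-06).

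Hoxa11 (ENSMUSG00000038210.10, chr6:52242106-52245810, minus strand) was at 68.9 TPM in replicate 1 and 77.2 TPM in replicate 2, from 2975 and 3369 expected reads. Its mean was 73.1 ± 5.88 TPM (SD, n = 2). Replicate 2 was higher by 0.16 on the log2 scale (exact binomial test, adjusted p = 0.000217). The deposited posterior SD of its read count, which reflects reads shared with other genes, was 43.9 and 46.7 reads, or 1.48% and 1.39% of the count. Its rank and its level beside other genes rest in part on how reads of the bases shared with Hoxa11os were split.

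Hoxa13 (ENSMUSG00000038203.18, chr6:52257694-52260880, minus strand) was the lowest of the 4 coding genes, at 25.8 TPM in replicate 1 and 27.2 TPM in replicate 2, from 1167 and 1228 reads. Its mean was 26.5 ± 0.990 TPM (SD, n = 2). The difference of 0.07 on the log2 scale did not pass the exact binomial test (adjusted p = 0.619).

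Hoxa11os (ENSMUSG00000086427.8, chr6:52244393-52249799, plus strand) was the highest of the 6, at 498.8 TPM in replicate 1 and 541.8 TPM in replicate 2, from 9306 and 10145 expected reads. Its mean was 520.3 ± 30.4 TPM (SD, n = 2), the 252nd highest of all genes and the fifth of 9603 genes annotated as lincRNA, antisense or processed transcript. Replicate 2 was higher by 0.12 on the log2 scale (exact binomial test, adjusted p = 1.46e-05).

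Hottip (ENSMUSG00000055408.7, chr6:52262775-52267603, plus strand) was the lowest of the 6, at 8.08 TPM in replicate 1 and 8.81 TPM in replicate 2, from 355 and 391 expected reads. Its mean was 8.45 ± 0.516 TPM (SD, n = 2), which placed it 180th among the same 9603 noncoding genes. Of these, 1074 reached a mean of 1 TPM. The difference of 0.11 on the log2 scale did not pass the exact binomial test (adjusted p = 0.508).

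Between the libraries, 0 of the 6 genes passed both an adjusted p of 0.05 and a 2-fold TPM ratio, beside 1.07% of the 15926 genes tested. Without the fold minimum 3 passed (Hoxa10, Hoxa11 and Hoxa11os), also 3 at an unadjusted p under 0.05, all higher in replicate 2. Of all genes 19.2% passed that test and 8.57% did so with the higher level in replicate 2. The test compares these libraries and not conditions, and covers counting error only. By TPM, 6 of 6 were higher in replicate 2, beside 53.1% of all genes, and by scaled reads 5 of 6. The median change of the 6 was 0.12 on the log2 scale, beside 0.01 over all genes tested. With spike-in, tRNA and mitochondrial entries taken out of the TPM total, 6 of 6 remained higher in replicate 2, with ratios from 1.03 for Hoxa13 to 1.09 for Hoxa11. Each gene's difference lay under the 95th percentile of the difference between libraries among genes of its own level, and 2 lay under the median.

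The pools also differed in genes that mark the fore- and hindlimb, which were looked up after their values were seen. Tbx5, the forelimb gene, was at 40.0 TPM in replicate 1 and 28.4 TPM in replicate 2 (exact binomial test, adjusted p = 2.43e-32). The hindlimb genes Tbx4, at 30.6 and 35.1 TPM, and Pitx1, at 135.6 and 164 TPM, were higher in replicate 2 (adjusted p = 0.000155 and 2.2e-26). None of the 3 reached a 2-fold difference. Their part in the differences of the HoxA genes was not tested.

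In order of mean TPM the genes were Hoxa11os, Hoxa10, Hoxa11, Hoxa9, Hoxa13 and Hottip. The same order was found in each library, and for all 5 neighbouring pairs the libraries did not overlap. Hoxa11os exceeded Hoxa10 by 2.35-fold in replicate 1 and 2.31-fold in replicate 2, and Hoxa10 exceeded Hoxa11 by 3.08-fold and 3.03-fold. Hoxa9 exceeded Hoxa13 by 2.26-fold and 2.27-fold, and Hoxa13 exceeded Hottip by 3.20-fold and 3.09-fold. These 4 steps were larger than the 95th percentile of the difference between libraries for genes of like level. Hoxa11 exceeded Hoxa9 by 1.18-fold and 1.25-fold. The smaller of these is 0.24 on the log2 scale, below the 95th percentile of 0.29 among the 5320 genes between 20 and 100 TPM, so this step was not larger than that spread in both libraries. With 2 values a gene, the lowest p of an exact permutation test is 0.333, so no p is given for the order.

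Among the coding genes, Hoxa10 held the larger part of the posterior HoxA level when all transcripts of each gene were counted. Of the summed TPM of the 4 genes it held 58.1% in replicate 1 and 58.5% in replicate 2. Hoxa11 held 18.8% and 19.3%, Hoxa9 16.0% and 15.4%, and Hoxa13 7.06% and 6.80%. The gene level therefore did not rise or fall steadily along the cluster from Hoxa9 to Hoxa13. These gene levels include transcripts annotated without a coding sequence, which for Hoxa10 held 126.6 TPM in replicate 1 and 145.6 TPM in replicate 2. The full coding transcript Hoxa10-202 was at 50.76 and 51.25 TPM, below Hoxa11-201 at 68.4 and 77.2 TPM.

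The 4 posterior genes held nearly all of the summed level of the HoxA coding genes, with all transcripts of each gene counted. Their TPM summed to 366 in replicate 1 and 400.4 in replicate 2, while the anterior HoxA coding genes summed to 29.4 and 27.4. The posterior share was 92.6% and 93.6% (mean 93.1% ± 0.730, SD, n = 2). Of the 7 anterior genes, 5 reached 1 TPM in both libraries, and 0 of the 5 tested passed the binomial test, beside 19.2% of all genes tested. Those 5 had between 38 reads (Hoxa6, replicate 2) and 322 reads (Hoxa7, replicate 1), fewer than each posterior gene, so smaller differences could pass in the posterior genes. Hoxa7, the neighbour of Hoxa9 and the highest of them, was at 10.8 and 9.36 TPM, and Hoxa4, the lowest, at 0.70 and 0.28 TPM. Hoxa7 was thus below Hoxa9 and Hoxa13 in both libraries and above Hottip in both.

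Against their paralogues, the HoxA genes led groups 9 to 11 and not group 13. Hoxa9 held 75.6% and 77.6% of the TPM of group 9, in which Hoxd9 was next at 15.02 and 14.16 TPM. Hoxa10 held 81.9% and 82.3% of group 10, with Hoxd10 at 30.9 and 33.5 TPM and Hoxc10 at 16.2 and 16.9 TPM. Hoxa11 held 60.0% and 59.0% of group 11, with Hoxd11 at 43.2 and 49.4 TPM, a share that depends on the split of reads with Hoxa11os. In group 13 the order was the reverse. Hoxa13 held 27.9% and 26.8%, below Hoxd13, its partner in the hand and foot plate, at 63.9 and 70.2 TPM. The libraries of each pair named did not overlap. Of the 12 posterior paralogues in the other clusters, 10 reached 1 TPM in both libraries, and 5 of the 10 tested (Hoxc11, Hoxc13, Hoxd11, Hoxd12 and Hoxd13) were higher in replicate 2 at an adjusted p of 0.05, 0 lower, and 0 by 2-fold, beside the 8.57% of all genes tested that passed with the higher level in replicate 2. In these libraries 27 of 39 Hox genes reached 1 TPM in both.

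**Figure D2:**
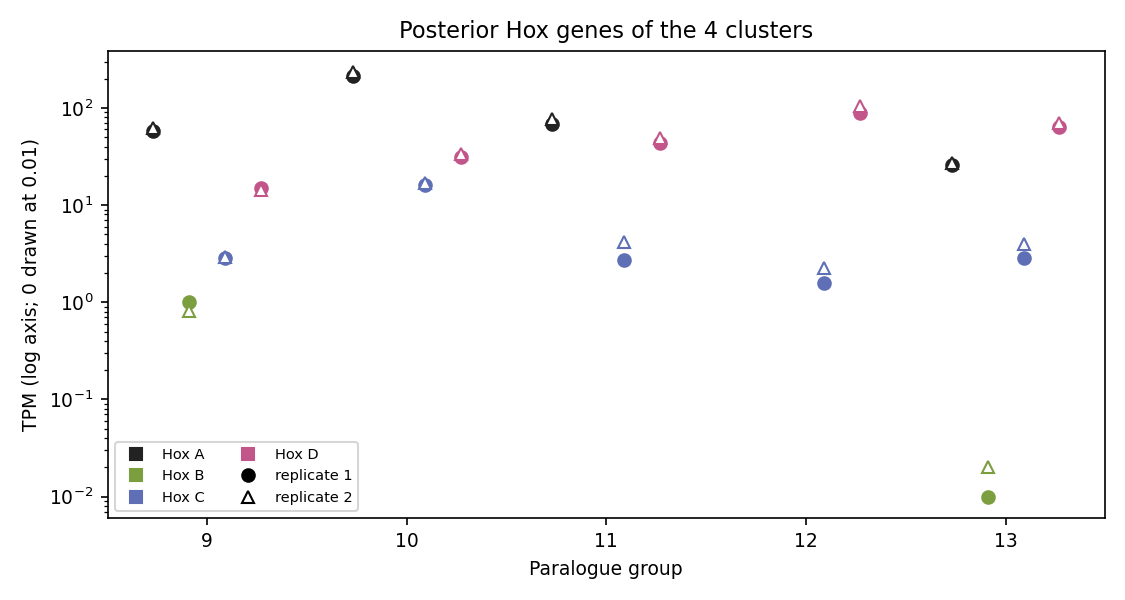
Level in TPM (log axis) of the Hox genes of paralogue groups 9 to 13, colored by cluster, with filled circles for replicate 1 and open triangles for replicate 2. The HoxA genes are the highest of groups 9, 10 and 11, and Hoxd13 is above Hoxa13 in group 13.

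Hoxa11os was more abundant than Hoxa11 in both libraries. The TPM ratio was 7.24 in replicate 1 and 7.02 in replicate 2 (mean 7.13 ± 0.158, SD, n = 2), and the ratio of expected reads, not divided by length, was 3.13 and 3.01. Since 35.0% of the exonic bases of Hoxa11 and 26.0% of those of Hoxa11os lie under exons of the other gene, the ratio rests in part on how the authors' estimation split shared reads. Of the 939 coding bases of Hoxa11, 709 lie under antisense exons. The ratio was also computed from the 4 Hoxa11os transcripts that have no base under a Hoxa11 exon, an alternative added after seeing the data. They held 449 TPM in replicate 1 and 491 TPM in replicate 2, or 90.0% and 90.6% of the gene, and their ratio to Hoxa11 was 6.52 and 6.35. Shared reads still bear on this ratio, because the Hoxa11 level in it includes the shared bases. The 4 transcripts also have few bases in no other Hoxa11os transcript, from 0 for Hoxa11os-203 to 199 for Hoxa11os-202. The other transcripts, Hoxa11os-201 with 568 bases and Hoxa11os-206 with 646 bases under Hoxa11 exons, were at 39.8 and 38.8 TPM and at 9.97 and 12.4 TPM.

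**Figure D3:**
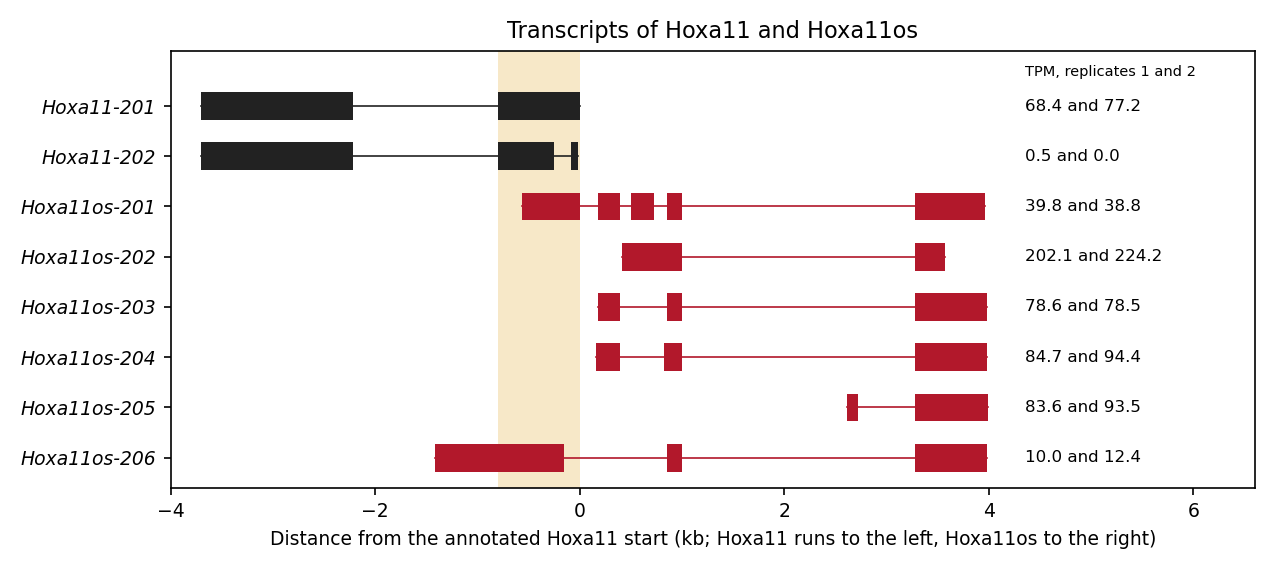
Exons (boxes) and introns (lines) of the annotated transcripts of Hoxa11 (black) and Hoxa11os (red) by distance in kb from the annotated Hoxa11 start, with each transcript's TPM in replicates 1 and 2 at the right; the shaded stretch marks the 800 shared exonic bases. The most abundant antisense transcript, Hoxa11os-202, at 202 and 224 TPM, lies outside the shaded stretch.

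The most abundant Hoxa11os transcript, Hoxa11os-202, is annotated as a retained intron and held 40.5% and 41.4% of the gene. Hoxa11os-203, Hoxa11os-204 and Hoxa11os-205 held between 14.5% and 17.4% each. Entries annotated as misc_RNA lie inside the Hoxa11os body on the same strand, and 5 of the 6 overlap its exons. Of those overlapping an exon, Gm27492 had 158 and 132 expected reads, Gm27543 185 and 259, and Gm27454 47.1 and 74 reads, while Gm28032 and Gm27695 had 0 in both libraries. Together the reads assigned to them equalled 4.19% and 4.59% of the count of Hoxa11os. Whether these reads come from RNAs separate from Hoxa11os was not tested. Gm27817, in an intron, had 88 and 86 reads.

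Hottip stood below its coding neighbour. Its TPM ratio to Hoxa13 was 0.313 in replicate 1 and 0.324 in replicate 2 (mean 0.318 ± 0.00758, SD, n = 2). The bodies of Hoxa13 and Hottip do not overlap, so no shared reads enter this ratio from the pair itself. Between them lies Gm27280, a plus-strand misc_RNA entry with 0 reads in both libraries. A further 3 misc_RNA entries overlap Hottip exons on the same strand. Gm27985 had 4.45 and 3.92 expected reads, Gm27383 11.1 and 16.8, and Gm27866 0 in both. Between Hoxa11os and Hoxa13 lies the minus-strand entry 9530018H14Rik, at 7.48 and 8.72 TPM from 169 and 199 reads; Hottip was at 8.08 and 8.81 TPM. Of the other noncoding RNAs and flanking genes of the cluster that were listed, 8 of 10 names were found and 5 of these reached 1 TPM in both libraries. Hotairm1, at the anterior end, was at 8.83 and 4.00 TPM from 39.1 and 20.4 expected reads, and Evx1os, in the flank beyond Hottip, at 7.69 and 8.69 TPM. Halr1 and Mir196b had 0 reads.

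Transcript shares are estimates, and the deposited tables give no test of them. For Hoxa10 the most abundant transcript was Hoxa10-203, annotated as a processed transcript without a coding sequence. It was at 122 TPM in replicate 1 and 140 TPM in replicate 2, or 57.5% and 59.6% of the gene (mean 58.5% ± 1.52, SD, n = 2). Among 11793 coding genes with several transcripts, 8.17% had a major transcript annotated as a processed transcript or a retained intron. Only 128 of its 1710 bases, 7.49%, are in no other Hoxa10 transcript, so its share rests on few distinguishing bases. The full coding transcript Hoxa10-202 was at 50.8 and 51.2 TPM, or 23.9% and 21.9%. Hoxa10-201, from the upstream start, carries a coding sequence of 282 bases, beside 1248 for Hoxa10-202, and was at 35.1 and 37.4 TPM. With Hoxa10-204 it brought the transcripts from the upstream exon to 39.6 and 43.3 TPM, or 18.6% and 18.5% of the gene. The upstream start lies 5915 bases from that of Hoxa10-202. Hoxa10-201, Hoxa10-202 and Hoxa10-203 differ in their first exons, which the junctions printed above join to the second exon, and in where that exon ends.

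**Figure D4:**
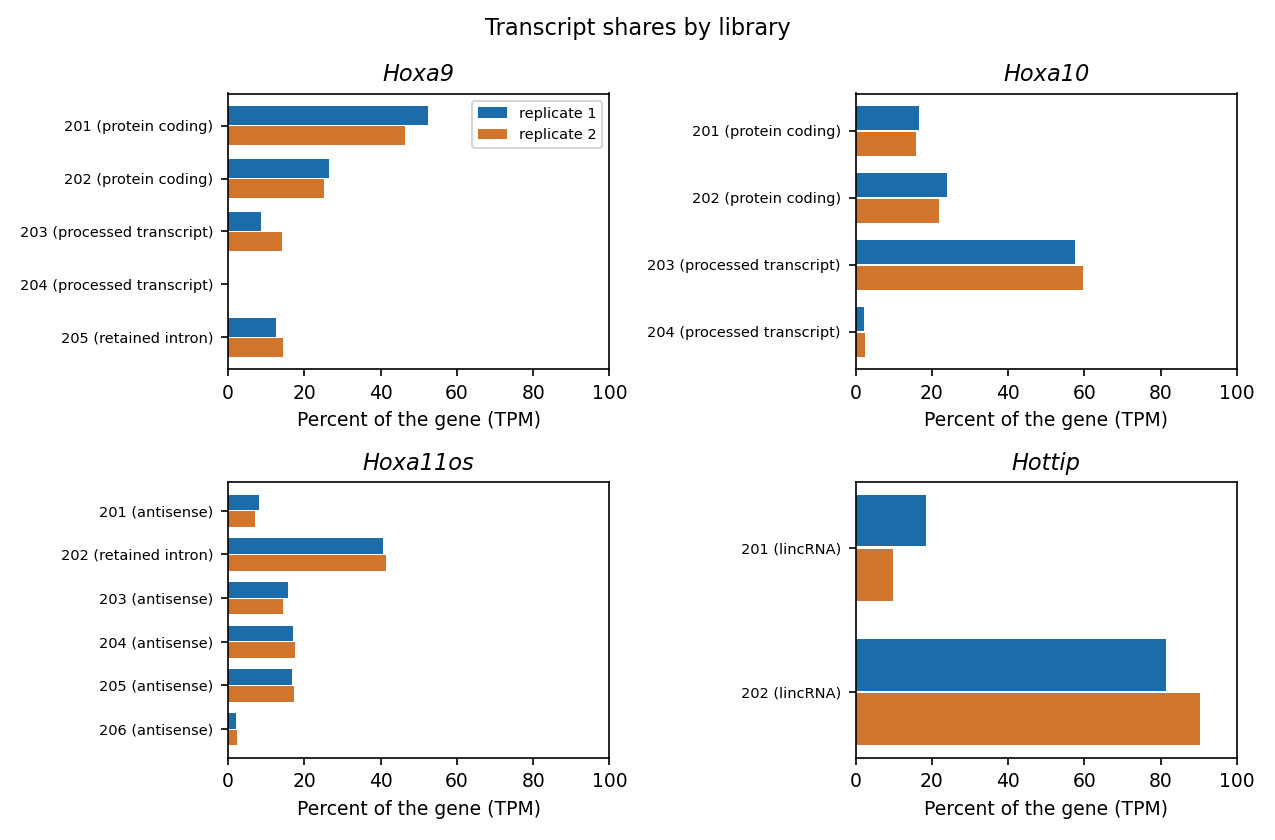
Percent of the gene's TPM held by each annotated transcript (named by its number, with its annotated type) of Hoxa9, Hoxa10, Hoxa11os and Hottip, with a bar for each replicate and a horizontal axis from 0 to 100. Hoxa10-203 holds 57.5% and 59.6%, and Hottip-202 81.4% and 90.3%.

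For Hoxa9 the most abundant transcript carries the full coding sequence. Hoxa9-201 held 52.4% in replicate 1 and 46.5% in replicate 2, at 30.6 and 28.7 TPM. Hoxa9-202, with a shorter coding sequence, held 26.4% and 25.0%, and Hoxa9-203, a processed transcript with a distant first exon, held 8.65% and 14.02%. Hoxa9-202 has 0 bases that are in no other Hoxa9 transcript and Hoxa9-203 has 68, so both shares rest on the estimation. By expected reads, not divided by length, Hoxa9-202 held 9.20% and 9.23%, Hoxa9-203 2.32% and 3.98%, and Hoxa9-201 75.8% and 71.3%. The first junctions of these are printed below, in which capitals mark the shared second exon, and the exon ends are chr6:52225617-52225791 and chr6:52225617-52231022.
Hoxa9-202: ggcgccggacggcagTTGATAGAGAAAAAC
Hoxa9-203: ccctggtgccttaagTTGATAGAGAAAAAC
Hoxa9-205, a retained intron at chr6:52228247-52230532, held 12.5% and 14.4%, from 315 and 389 reads, with 90.7% of its bases in no other Hoxa9 transcript. It covers the hairpin of miR-196b, a microRNA whose known targets include Hox genes. The RefSeq hairpin (GRCm38.p6, chr6:52230081-52230165, minus strand) and its mature 5p sequence are given because this stretch of the Hoxa9 transcript holds them. In the hairpin, capitals mark the mature 5p sequence, and in the mature sequence they mark the seed, bases 2 to 8.
miR-196b hairpin: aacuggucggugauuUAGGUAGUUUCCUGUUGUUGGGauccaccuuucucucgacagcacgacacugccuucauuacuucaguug
miR-196b-5p: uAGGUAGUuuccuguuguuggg
The gene entry of miR-196b had 0 reads, and these polyA libraries of fragments over 200 bases do not measure the mature microRNA.

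The other genes were estimated mostly as 1 transcript each. Hoxa11-201 held 99.2% and 100% of Hoxa11, and Hoxa13-203 held 99.4% and 97.8% of Hoxa13. The annotated coding sequence of Hoxa13-203 has 888 bases, beside 1149 for Hoxa13-201, which held 0.65% and 0.30%. All 1149 of those bases lie in the exons of Hoxa13-203. Hottip-202 held 81.4% and 90.3% of Hottip, and Hottip-201 18.6% and 9.73%, from 66.5 and 38.4 expected reads. In 0 of 6 genes did the share of the major transcript move by 10 percentage points or more, beside 19.2% of genes. The largest move was 8.82 points, for Hottip.

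The subunits of the Wdr5 and Mll complexes were present. All 6 listed genes reached 1 TPM, and 1 passed the binomial test, Dpy30, higher in replicate 2 at 214 and 236 TPM (adjusted p = 0.0152). Wdr5 itself was at 56.3 and 58.6 TPM, and Kmt2a, the catalytic subunit and the lowest of the 6, at 14.2 and 15.8 TPM. The TALE homeodomain genes, whose proteins bind DNA together with Hox proteins, were all above 1 TPM (9 of 9). Pbx3, at 19.6 and 15.7 TPM, and Pknox2, at 14.5 and 12.3 TPM, were lower in replicate 2 (exact binomial test, adjusted p = 0.0288 and 0.000415). Pknox1 was the highest, at 30.7 and 28.2 TPM, and Meis1 was at 25.3 and 28.0 TPM. Genes described as targets of Hoxa13 were also measured. Of the 5, Bmp2 was at 30.05 and 30.17 TPM and Bmp7 at 24.9 and 25.0 TPM. Epha7, a guidance receptor, was at 39.5 and 45.1 TPM, higher in replicate 2 (exact binomial test, adjusted p = 9.22e-05). Aldh1a2, which makes retinoic acid, was at 95.9 and 82.3 TPM, and Sall1 at 17.4 and 14.3 TPM, both lower in replicate 2 (adjusted p = 3.17e-10 and 1.84e-07). None of these lists had a gene past a 2-fold difference.

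The 7 promoter windows of the 6 genes in the RefSeq table were searched on both strands for 3 short motifs, and no match overlapped another. CAATAAA, bound by group 13 proteins, was found in 1 of 7, that of Hottip, at position -229 from the start, and in 4.5996% of the 32851 promoters. TCGTAAA, bound by posterior Hox proteins, was found in 0 of 7, beside 0.597% of all promoters. The motif TGATTTA, bound by Pbx with posterior Hox proteins, was also found in 0 of 7, beside 2.97% of all promoters. A match is a description of the letters and not of binding. The Hottip window, at chr6:52262525-52262824 on the plus strand, is printed as the holder of that match, which is in capitals.
Hottip promoter: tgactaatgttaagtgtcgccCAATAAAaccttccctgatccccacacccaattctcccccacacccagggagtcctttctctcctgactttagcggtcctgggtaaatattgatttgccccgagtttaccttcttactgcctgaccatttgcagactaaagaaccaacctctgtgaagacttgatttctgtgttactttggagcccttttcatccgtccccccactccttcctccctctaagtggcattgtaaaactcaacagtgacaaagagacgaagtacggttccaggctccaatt
The G and C content of the windows ran from 47.7% for Hottip to 81% for Hoxa13, with Hoxa11os at 70.3%, beside the median of 52.7%. The Hoxa11os window is set on the start of Hoxa11os-201, which held 7.99% and 7.16% of the gene in replicates 1 and 2. That of Hoxa13 is set on the start of Hoxa13-201, which held 0.65% and 0.3%. The starts of the most abundant transcripts Hoxa10-203, Hoxa11os-202 and Hoxa13-203 lie in none of the windows. The motif counts and G and C values therefore do not describe those starts.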

How the data were processed

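The authors' deposited tables hold, per library, the expected count of each gene and transcript, in tables with the layout of RSEM output. The authors scaled these to TPM and FPKM, and the deposited transcript tables also give the percent of the gene held by each transcript. GENCODE M21 and M4 on mm10 were both used for quantification, per the labels. Aligner, program version and strand setting: not given in the sources used here. M21 was used, with M4 as a check. Members and gene lists were chosen with earlier results of these data known. Listed genes could be named, besides the highest and lowest of the marker lists; some are not reported here.

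Levels are in TPM, and log2 ratios use a pseudocount of 1. Expected counts were rounded and compared between the libraries by a two-sided exact binomial test with TMM library sizes (edgeR 4.0.16), adjusted by Benjamini-Hochberg over genes at a mean of 1 TPM. In a simulated comparison, 199 of 200 genes changed by 3-fold were recovered, and 18 of 15726 unchanged genes were called. The simulation does not give the rate of false calls between the real libraries. There, 1.07% of the 15926 genes tested passed with the 2-fold TPM minimum, and 19.2% without it. Sequences come from GENCODE M21 transcripts and RefSeq tables.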

Additional observations from a re-analysis of the deposited data

How the results depend on the processing

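The count of 6 genes at 1 TPM, the 5 pairs without overlap and the ratio of Hottip to Hoxa13 kept their values, within 1.5 times or 1 SD, under the alternatives run for each among M4, other units, level minimums and rescaled TPM. Some of these outcomes were fixed in advance. FPKM is TPM times a constant per library, so the ratio and the order within a library cannot change beyond rounding. A minimum of 0.5 TPM, or a rescaling that raises every TPM, cannot lower the count of 6. Each library alone also gave the count of 6 and a ratio within 1 SD, but none of this is a check. Genes at 1 TPM in both libraries are so in each, and a ratio averaged over the pair lies within 1 SD of each value. Pairs cannot overlap in a single library by construction. The ranges given below with 1 library left out are the values of each library. The count of genes differing between the libraries, 0, was 3 with no fold minimum, and 0 otherwise. Over all genes that comparison called 170, and 3065 with no fold minimum, 432 at 1.5-fold, 378 with no minimum level and 38 at 5 TPM. The ratio of Hoxa11os to Hoxa11, 7.13, was 7.02 to 7.24 with 1 library left out, 3.07 from expected counts and 6.43 from the transcripts clear of Hoxa11 exons. The posterior share, 93.1%, was 92.6% to 93.6% with 1 library left out and 93.9% from expected counts. Scaled by DESeq2 size factors, the log2 ratio of scaled reads of Hoxa9 turned from -0.0092 to 0.0052. The share of Hoxa9-201 was 73.6% as a percent of expected counts. Leaving out a library gave no value for the comparison between the libraries. No paired analysis was possible because there was 1 group.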
